A study of Homo sapiens with 32 samples.

Results

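The 53 genes described here encode the Eph receptors, their ephrin ligands, the semaphorins, and the plexins and neuropilins that bind semaphorins. Membership was set by symbol, and the choice was made with earlier results of these data known. Every symbol of these 5 families among the 25559 in the tables was taken: 14 Eph receptors, 8 ephrins, 20 semaphorins, 9 plexins and 2 neuropilins. RNA was sequenced in 32 libraries, 1 for each of 8 treatments in 4 human T-cell lines. HH and H9 came from cutaneous T-cell lymphomas, PF382 from a T-cell acute lymphoblastic leukemia and TLOm1 from an adult T-cell leukemia. Cells grew for 96 hours with romidepsin, azacitidine, both or neither. Romidepsin, which inhibits histone deacetylases, was added once, and azacitidine, a cytidine analogue that traps DNA methyltransferases, once every 24 hours. The azacitidine doses, in combinations and alone, were 50, 125 and 250 nM for HH and for H9, and 125, 250 and 500 nM for the other lines. Of romidepsin, PF382 received 1.25 nM, H9 and TLOm1 1 nM, and HH, by its titles, 1.25 nM beside azacitidine but 1 nM otherwise. Each line is 1 culture model with 1 library per treatment, so the 4 lines served as replicates (n = 4) and the spread between cultures of a line was not measured.

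Eph receptors are receptor tyrosine kinases that meet their ephrin ligands on the surface of a neighbouring cell. The A ephrins hang on a lipid anchor and the B ephrins span the membrane, so that a signal can also run back into the cell that carries the ephrin. Semaphorins are secreted, membrane-spanning or lipid-anchored ligands, and most signal through plexins, whose inner part acts on small GTPases and so on the actin skeleton and on integrins. Secreted semaphorins of class 3 mostly need a neuropilin beside the plexin. The 5 families are best known from the guidance of axons and blood vessels. In T cells and thymocytes they are known from adhesion, migration and costimulation, with SEMA4D (also called CD100), SEMA4A, SEMA7A, PLXND1 and EPHB6 as examples.

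Total counts per library lay between 16175077 and 32496676, and a floor of 3 counts corresponded to 0.122 CPM in untreated PF382, where CPM is the count scaled to a common effective library size. The 12 T-cell markers examined summed to between 1307.7 and 2581.8 CPM in the 4 combinations with 250 nM azacitidine, and between 1614.4 and 2347.8 CPM in the 4 untreated libraries. Not every line held every marker: LCK had 0 counts in untreated HH, CD2 had 12 in untreated H9, and CD3G had 3 in untreated TLOm1. Markers of other cell types moved with the combination too. At 250 nM azacitidine 4 of 11 tested neuron markers, 5 of 9 endothelial, 2 of 9 fibroblast, 3 of 8 epithelial and 2 of 6 myeloid markers were higher than in untreated cells and 0 lower, where 14.2% of all genes were higher. Of the 12 T-cell markers 1 was higher, LAT (0.87), and 2 were lower, CD247 (-0.60) and CD3E (-0.36). The summed neuron markers ran from 33.3 to 236.0 CPM in the combination and from 9.2 to 195.5 CPM in untreated cells, and the endothelial markers from 5.8 to 72.4 CPM and from 1.5 to 32.3 CPM, with KDR at 0 in both. Fibroblast markers ran from 10.2 to 116.7 and from 1.0 to 126.4 CPM, epithelial markers from 4.1 to 238.7 and from 1.2 to 151.0 CPM, and myeloid markers from 3.1 to 12.6 and from 1.5 to 5.9 CPM, the combination first. Several of these markers are also known from blood cells, and their part in the results below was not tested. In cell populations measured in bulk, more RNA per cell and more cells with the RNA cannot be told apart.

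The upstream sequences of the 3 genes with the smallest adjusted p-values for the azacitidine dose slope are shown first, since azacitidine acts on the methylation of CG dinucleotides. They are the 250 bases before the RefSeq start of SEMA6C (chr1:151146632-151146881, minus strand), SEMA3F (chr3:50154808-50155057, plus strand) and PLXNA1 (chr3:126982865-126983114, plus strand), in build GRCh38.p14, 5′ to 3′, with each CG in capitals.
SEMA6C: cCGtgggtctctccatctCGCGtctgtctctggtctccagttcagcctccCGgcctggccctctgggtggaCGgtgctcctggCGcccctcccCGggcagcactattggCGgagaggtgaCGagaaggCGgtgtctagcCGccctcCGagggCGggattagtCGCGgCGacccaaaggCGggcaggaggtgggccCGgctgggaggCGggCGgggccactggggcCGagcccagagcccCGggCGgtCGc
SEMA3F: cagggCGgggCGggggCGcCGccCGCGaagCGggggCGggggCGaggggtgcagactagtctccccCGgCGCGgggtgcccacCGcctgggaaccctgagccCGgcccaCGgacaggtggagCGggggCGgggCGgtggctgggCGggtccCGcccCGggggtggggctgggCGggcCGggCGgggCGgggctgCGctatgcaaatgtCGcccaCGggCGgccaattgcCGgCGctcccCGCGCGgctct
PLXNA1: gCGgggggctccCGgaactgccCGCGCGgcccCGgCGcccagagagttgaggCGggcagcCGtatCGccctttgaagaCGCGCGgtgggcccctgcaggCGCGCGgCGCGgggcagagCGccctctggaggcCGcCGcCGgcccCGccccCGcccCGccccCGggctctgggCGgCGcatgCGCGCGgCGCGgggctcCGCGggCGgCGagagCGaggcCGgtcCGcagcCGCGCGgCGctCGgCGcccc
They held 24, 34 and 46 CG dinucleotides, in the order printed. Over 27305 RefSeq promoters of this length the median was 11, and 51.9% held 10 or more. Of the 53 genes 47 matched the RefSeq table, with a median of 17 CG and 76.6% with 10 or more. The 16 genes with a called dose slope had a median of 25.5 CG, against 15 in the 24 tested genes without one, and 81.2% of the first and 70.8% of the second held 10 or more. For the 15 genes called in the combination with 250 nM azacitidine and the 25 not called, the medians were 23 and 15, and 73.3% and 76% held 10 or more. SEMA3C, EPHB6 and PLXNB1, with called slopes, held 2, 3 and 4 CG. Methylation was not measured, and the counts of CG are a description of these windows.

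The lines differed widely in which of these genes they used before any drug. At least 10 counts in the untreated library were found for 32 of 53 genes in PF382, 30 in TLOm1, 30 in HH and 33 in H9, which is 56.6 to 62.3%, where 52.8 to 55.3% of all symbols reached that count. In all 32 libraries 19 genes had at least 10 counts: 2 Eph receptors (EPHB4, EPHB6), 3 ephrins (EFNA3, EFNA4, EFNB1), 7 semaphorins (SEMA4A, SEMA4B, SEMA4C, SEMA4D, SEMA4F, SEMA4G, SEMA6C) and 7 plexins (PLXNA1, PLXNA3, PLXNB1, PLXNB2, PLXNB3, PLXNC1, PLXND1). EPHA6, SEMA3E and SEMA5A stayed under 10 counts in every library. EPHA7, EPHA8, EPHB3 and EFNA2 had too few counts to be tested, which left 46 of the 53 in the tests.

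EPHB6, a receptor whose kinase is inactive and which is known from thymocytes, was the extreme case. The untreated libraries held 31288 counts in PF382, 2751 in H9, 75 in TLOm1 and 31 in HH. Per kilobase of merged exons its median over the 8 libraries of a line was 235 CPM in PF382, 18.6 in H9, 1.38 in HH and 0.637 in TLOm1. SEMA4D, the ligand of PLXNB1 and CD72, was abundant in every line, with a median of 26.6 CPM per kilobase in H9, 12 in HH, 10.5 in PF382 and 5.22 in TLOm1. PLXNA1, a plexin that works with neuropilins, stood at 16.2 CPM per kilobase in H9, 13.9 in HH, 12.2 in PF382 and 4.91 in TLOm1.

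Other members belonged to some lines and were near 0 in others. PLXNC1, the receptor of SEMA7A, had 5583 and 3598 counts in untreated TLOm1 and HH, and 148 and 242 in PF382 and H9. Its ligand SEMA7A, a semaphorin with a lipid anchor, was instead abundant in PF382 and H9, with 1424 and 1315 counts in the untreated libraries, and had 67 and 7 in TLOm1 and HH. EFNA5, an ephrin with a lipid anchor, had 706 counts in untreated HH against 43, 2 and 1 in PF382, TLOm1 and H9. EPHA1, an Eph receptor of the A class, had 1029 and 166 counts in untreated H9 and PF382, and 2 and 0 in HH and TLOm1. Equality of levels over the 4 lines was rejected for 46 of 46 members, where 98.1% of all 17801 tested genes were called, so the count says little about these families. At least 10 counts of both partners were present in untreated cells of 4 lines for SEMA4D with PLXNB1 and for SEMA4A with PLXND1, of 3 lines for EFNB2 with EPHB4 and for SEMA7A with PLXNC1, and of 1 line (H9) for SEMA3F with NRP2.

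**Figure D1:**
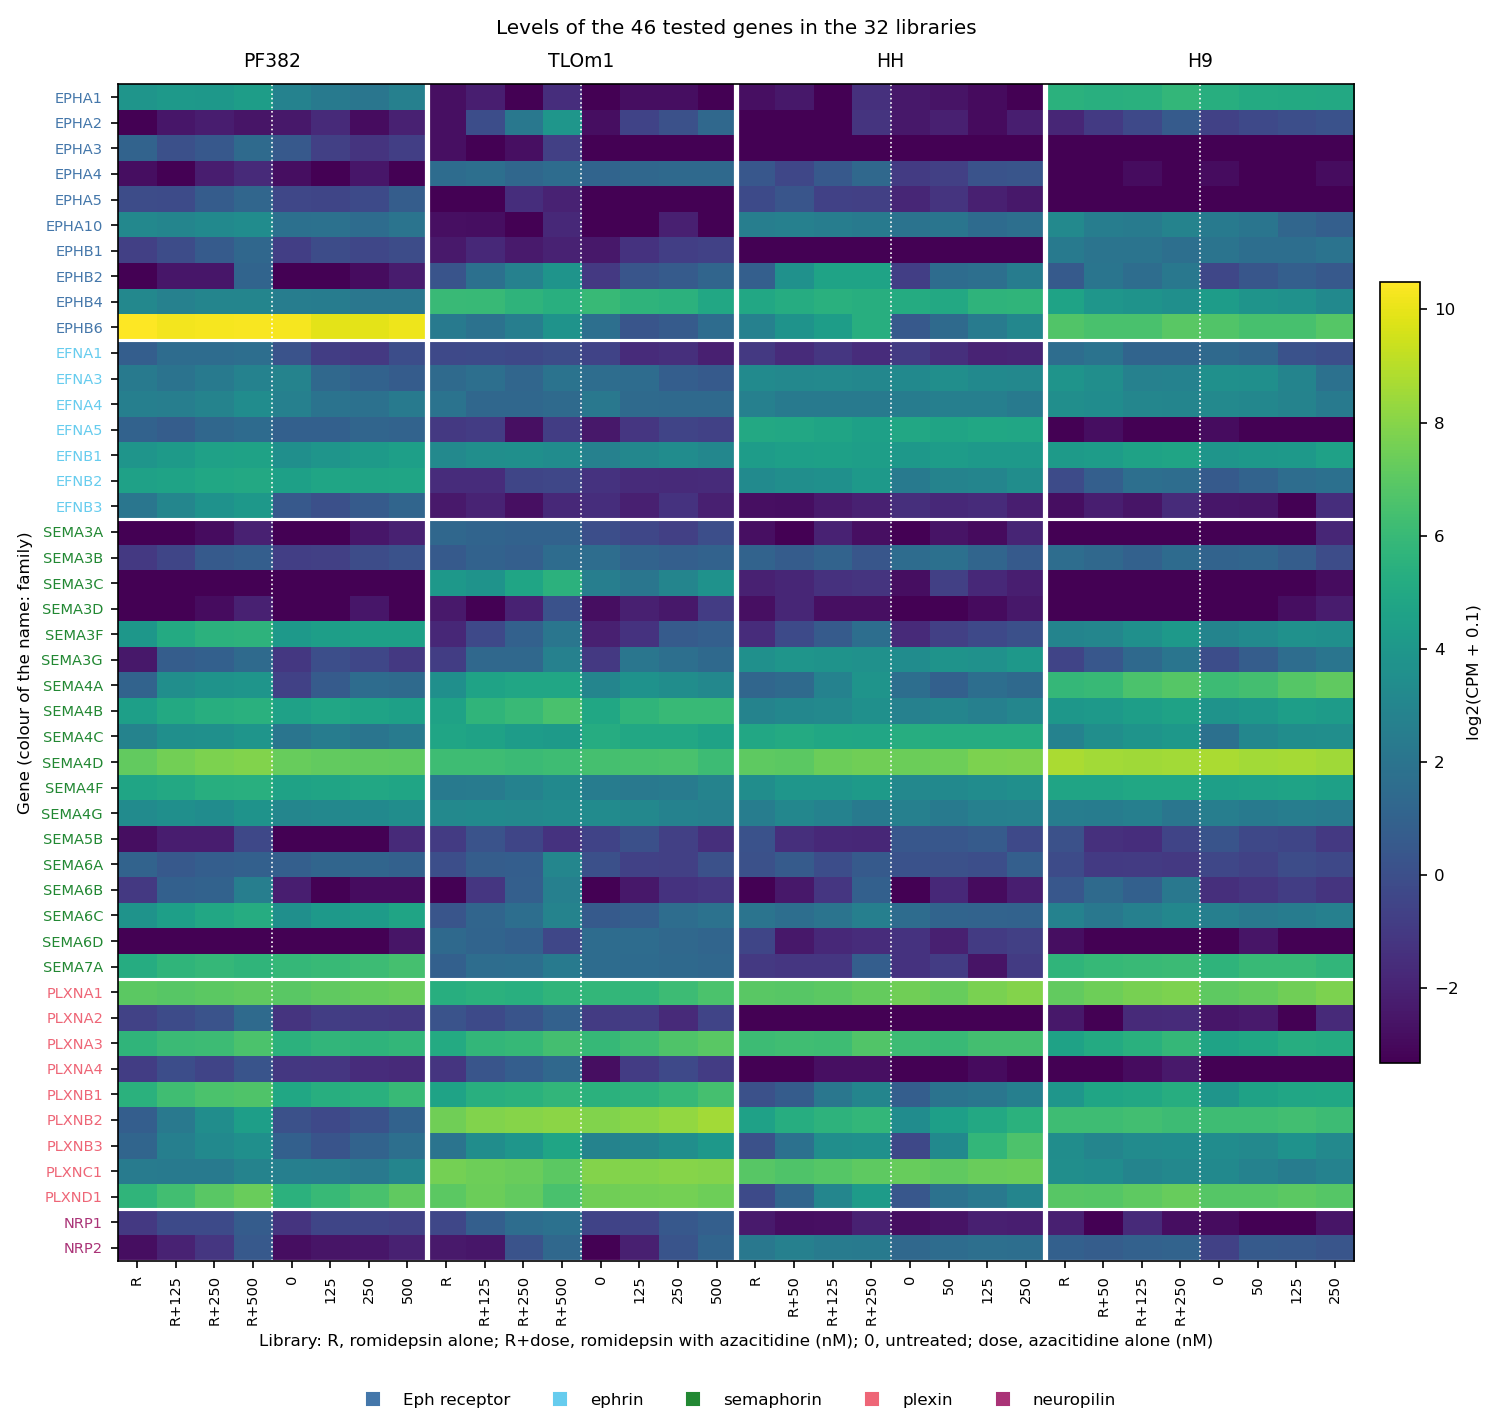
Levels of the 46 tested genes, as log2(CPM + 0.1), in the 32 libraries. Rows are genes ordered by family, and columns are libraries grouped by line, those with romidepsin left of those without and azacitidine doses from low to high. EPHB6 was brightest in PF382, SEMA4D was bright in every line, and PLXNC1 was bright in TLOm1 and HH alone.

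Over the 4 lines, the combination with 250 nM azacitidine raised 17 of the 46 genes against untreated cells and lowered 0. Among all tested genes 23% were called, 14.2% higher and 8.76% lower, and the share of the members called higher was 37%. The median log2 change was 0.97 over the 46 members and 0.04 over all tested genes. SEMA6B, PLXNA4 and SEMA3D had under 10 counts in each untreated library and passed the filter on low counts through treated libraries, so that for these 3 a difference was built in and their counts and tests are given as a description. SEMA6B and PLXNA4 are 2 of the 17. By family, 8 of 18 semaphorins, 3 of 9 plexins, 2 of 10 Eph receptors, 2 of 7 ephrins and 2 of 2 neuropilins were higher. Each change below is a log2 fold change ± its standard error from the fit of all 32 libraries, called at an adjusted p under 0.05. In the group of 4 combination libraries and the group of 4 untreated libraries the ranges overlapped for 16 of the 17. Only SEMA6B, for which a difference was built in, had no overlap. The share of all genes without overlap was not computed.

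EPHB2, a receptor of B ephrins known from axon guidance and from the crypts of the gut, had the smallest adjusted p. It had 0.077, 6.6, 25.3 and 4.47 CPM in the combination in PF382, TLOm1, HH and H9, against 0, 0.384, 0.48 and 0.657 CPM in the untreated libraries of the same lines. The gene was higher in 4 of 4 lines, with HH highest and PF382 resting on 2 counts against 0. The change was 4.10 ± 0.57 (adjusted p = 3.81e-05, n = 4), and the summed counts were 780 in the combination and 37 in untreated cells, a depth-scaled ratio of 22.6 with a 95% counting interval of 16.3 to 32.3.

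EPHA2, the main receptor of ephrin-A1, followed another course. It had 0.116, 4.46, 0.325 and 1.46 CPM in the combination in PF382, TLOm1, HH and H9, against 0.082, 0.043, 0.087 and 0.541 CPM in untreated cells. In TLOm1 it had 90 counts in the combination and 1 untreated, whereas PF382 had 3 and 2 counts. The change over the lines was 2.76 ± 0.79 (adjusted p = 0.0146), and without TLOm1 it was 1.42 with an adjusted p of 0.149. EPHB6 was not called here.

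Among the ephrins, EFNB1, a membrane-spanning ligand whose mutation causes craniofrontonasal syndrome, gave the most even response. It had 24, 11.6, 21.2 and 27.1 CPM in the combination in PF382, TLOm1, HH and H9, against 11.7, 6.57, 16.1 and 14.3 CPM in untreated cells. The 4 line changes lay between 0.40 in HH and 1.04 in PF382, and the change over the lines was 0.80 ± 0.12 (adjusted p = 0.000101). EFNB2, the ligand of EPHB4 and a marker of arteries, had 29.5, 0.645, 17.3 and 3.01 CPM in the combination, against 22.9, 0.299, 4.97 and 1.43 CPM in untreated PF382, TLOm1, HH and H9. It was higher in 4 of 4 lines, most in HH, with a change of 1.07 ± 0.30 (adjusted p = 0.0128). Without HH the change was 0.73, and the call was lost (adjusted p = 0.181). About 26.2% of the merged exons of EFNB2 overlap an antisense transcript, and whether the counting used strand is not stated in these sources.

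The semaphorins gave the most calls. SEMA6B, a membrane-spanning ligand of A plexins, had 1.89, 1.69, 1.76 and 4.51 CPM in the combination in PF382, TLOm1, HH and H9, against 0.122, 0, 0 and 0.27 CPM in untreated cells. As it passed the filter through treated libraries, its values are a description. All 4 combination libraries lay above all 4 untreated ones, with 223 counts in the first group and 10 in the second. The change was 4.86 ± 0.86 (adjusted p = 0.000399), and the depth-scaled ratio of the sums was 23.9 (95% counting interval 12.8 to 50.6).

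SEMA4B, a membrane-spanning semaphorin, had 40.2, 65.2, 12.2 and 24.7 CPM in the combination in PF382, TLOm1, HH and H9, against 23.8, 29.3, 6.59 and 13.5 CPM in untreated cells. The line changes were close together, from 0.75 in PF382 to 1.15 in TLOm1, and the change over the lines was 0.91 ± 0.16 (adjusted p = 0.000506). SEMA6C, a relative of SEMA6B, had 30.6, 3.02, 6.18 and 8.23 CPM in the combination in PF382, TLOm1, HH and H9, against 11.7, 1.41, 2.79 and 6.18 CPM in untreated cells. It was higher in 4 of 4 lines and least so in H9. The change was 1.01 ± 0.25 (adjusted p = 0.006), and without PF382 it was 0.87 with an adjusted p of 0.0743.

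Of the secreted semaphorins of class 3, SEMA3F, a ligand of NRP2, was higher by 1.99 ± 0.40 (adjusted p = 0.00123), in 4 of 4 lines and by between 1.26 in H9 and 3.69 in HH. SEMA3C, known from the outflow tract of the heart in mice, was higher by 2.14 ± 0.46 (adjusted p = 0.00374), but PF382 and H9 had 0 counts in both groups. Its call was lost without TLOm1 (adjusted p = 0.167), which held 556 of the 563 counts in the combination. SEMA3G, another ligand of NRP2, was higher by 1.70 ± 0.48 (adjusted p = 0.0132). It rose least in HH, where the line change was 0.28, and the call was lost without PF382 (0.0637), TLOm1 (0.0581) or H9 (0.12), given as adjusted p-values. Of the membrane-spanning class 4, SEMA4A, which costimulates T cells, was higher by 2.16 ± 0.44 (adjusted p = 0.00158), between 0.71 in H9 and 4.61 in PF382. SEMA4F was higher by 0.63 ± 0.13 (adjusted p = 0.00142), in 4 of 4 lines.

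Among the receptors of semaphorins, PLXNB1, which binds SEMA4D, had 95.3, 45.2, 7.62 and 38.3 CPM in the combination in PF382, TLOm1, HH and H9, against 30, 45.5, 1.61 and 14.6 CPM in untreated cells. It was higher in 3 of 4 lines, all but TLOm1, with a change of 1.23 ± 0.32 (adjusted p = 0.00918). PLXNA3, a receptor that works with NRP2, had 71.7, 61.8, 108 and 58.4 CPM in the combination, against 47, 60.5, 71.2 and 26 CPM in untreated PF382, TLOm1, HH and H9. Its change of 0.62 ± 0.21 (adjusted p = 0.0378) was small in TLOm1, at 0.03. PLXNA4, a receptor of SEMA3A and class 6 semaphorins, was higher by 2.40 ± 0.66 (adjusted p = 0.0123), from 52 counts in the combination and 10 in untreated cells.

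NRP1, the co-receptor of SEMA3A and of vascular endothelial growth factor, had 0.771, 2.93, 0.139 and 0.044 CPM in the combination in PF382, TLOm1, HH and H9, against 0.327, 0.598, 0.044 and 0.039 CPM in untreated cells. In HH and H9 these are 3 counts or fewer, so the change of 1.66 ± 0.49 (adjusted p = 0.0184) rested on PF382 and TLOm1. NRP2, the co-receptor of SEMA3F, had 0.347, 1.04, 5.06 and 1.99 CPM in the combination in PF382, TLOm1, HH and H9, against 0.041, 0, 2.44 and 0.541 CPM in untreated cells. HH was highest in both groups, and the change was 2.14 ± 0.63 (adjusted p = 0.017), in 4 of 4 lines. Both calls were lost in some fits without 1 line: NRP1 without PF382 (adjusted p = 0.066) or TLOm1 (0.279), and NRP2 without PF382 (0.0652) or H9 (0.0767).

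**Figure D2:**
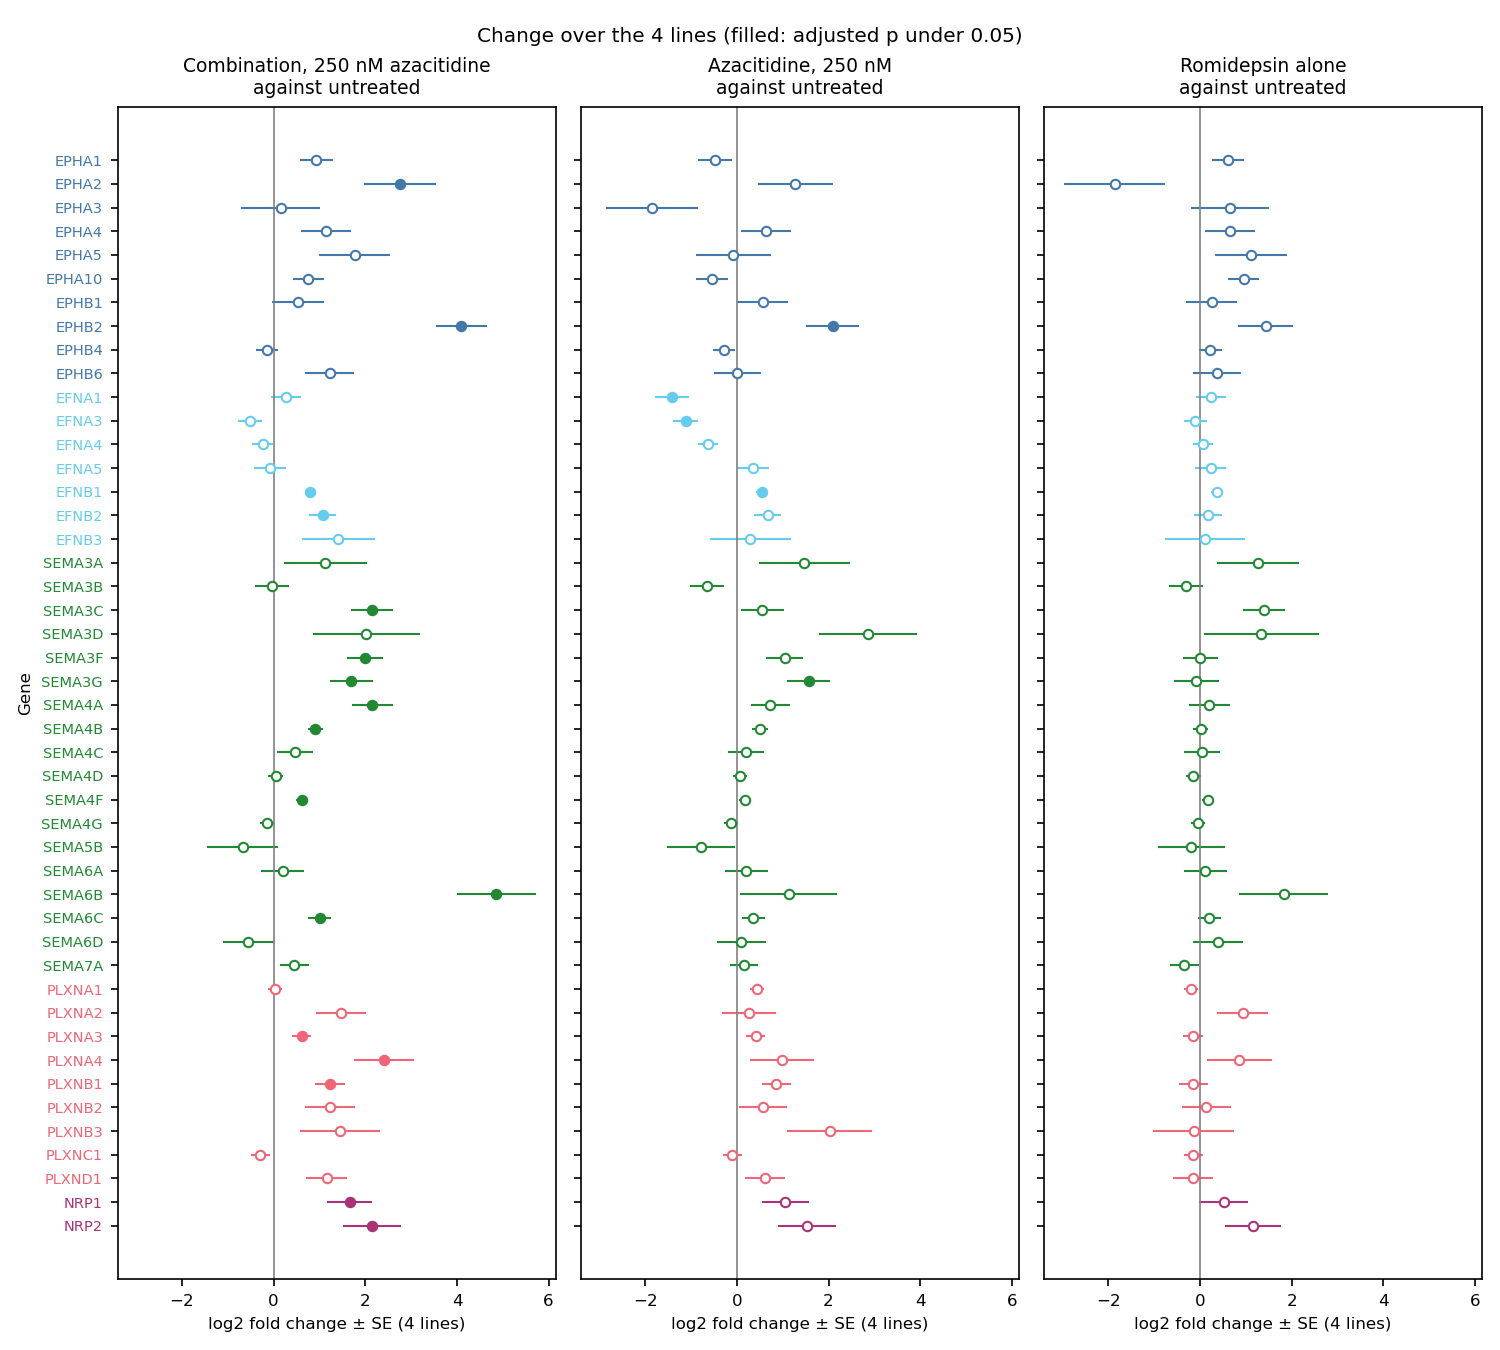
Log2 fold change ± SE over the 4 lines for the 46 tested genes, in the combination with 250 nM azacitidine, with 250 nM azacitidine alone and with romidepsin alone, each against untreated cells. Filled points passed an adjusted p of 0.05: 17 in the combination, 5 with azacitidine and 0 with romidepsin alone.

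Of the 17 calls, 7 were kept in each of the 4 fits without 1 line: EFNB1, EPHB2, SEMA3F, SEMA4A, SEMA4B, SEMA4F and SEMA6B. SEMA6B, which passed the filter through treated libraries, is listed as a description only. The plexin calls were not among the 7. PLXNB1 was lost without PF382 (adjusted p = 0.0516) or H9 (0.0666), PLXNA3 without PF382 (0.0771), HH (0.15) or H9 (0.289), and PLXNA4 without TLOm1 (0.242), where its change was 1.28. A fit of the 8 compared libraries alone, and a fit without the cell line as a term, each called 0 of the 46, and over all 9 alternatives the adjusted p of these 17 genes ran from 1.92e-09 to 1.

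With 125 nM azacitidine, the combination raised 6 of the 46 genes and lowered 0, where 7% of all genes were called, 4.4% higher and 2.6% lower. EPHB2 was higher by 3.71 ± 0.57 (adjusted p = 0.000552), SEMA6B by 3.54 ± 0.88 (adjusted p = 0.0177) and EFNB1 by 0.68 ± 0.12 (adjusted p = 0.00162). SEMA4A was higher by 1.70 ± 0.44 (adjusted p = 0.0223), SEMA4B by 0.60 ± 0.16 (adjusted p = 0.0287) and PLXNA4 by 2.24 ± 0.65 (adjusted p = 0.0401). Each of the 6 was higher in 4 of 4 lines, although PLXNA4 had 1 count or fewer in HH and H9. SEMA6B and PLXNA4 passed the filter on low counts through treated libraries, so their values are again a description. EPHB2 and EFNB1 kept their calls in each fit without 1 line. The other 4 lost theirs in 3 fits each, with PLXNA4 at 1.43 (adjusted p = 0.265) without TLOm1, SEMA4A at 1.14 (0.143) without PF382, SEMA4B at 0.59 (0.14) without H9, and SEMA6B at 3.21 (0.0772) without PF382 as the largest p-value of each. Over all alternatives the adjusted p of the 6 genes ran from 1.66e-06 to 1.

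Azacitidine alone at 250 nM gave 5 calls among the 46 genes, 3 higher and 2 lower, where 5.99% of all genes were called, 3.85% higher and 2.14% lower. The called A ephrins fell and the called B ephrin rose. EFNA3, a ligand with a lipid anchor, had 1.92, 1.66, 8.71 and 3.44 CPM with azacitidine in PF382, TLOm1, HH and H9, against 7.18, 2.9, 9.42 and 12.2 CPM in untreated cells. It fell by 1.11 ± 0.27 on the log2 scale (adjusted p = 0.015), in 4 of 4 lines, strongly in PF382 and H9 and by 0.11 in HH. About 44.7% of its merged exons are shared on the same strand with a read-through gene, so its counts are uncertain. EFNA1, the ligand of EPHA2, fell by 1.41 ± 0.36 (adjusted p = 0.0227), with 45 counts in the 4 azacitidine libraries and 115 in the 4 untreated ones. EFNB1 went the other way, with 18.1, 10.4, 17.8 and 23.4 CPM with azacitidine in PF382, TLOm1, HH and H9 against the untreated levels given above, and was higher by 0.54 ± 0.12 (adjusted p = 0.0102).

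EPHB2 had 0.039, 1.44, 5.39 and 1.34 CPM with 250 nM azacitidine in PF382, TLOm1, HH and H9, and was higher by 2.09 ± 0.58 (adjusted p = 0.0321) than in untreated cells, in 4 of 4 lines. SEMA3G had 585 counts in the 4 azacitidine libraries and 275 in the untreated ones, a change of 1.57 ± 0.47 (adjusted p = 0.0486), in 4 of 4 lines. None of the 5 calls held in every fit without 1 line. Without H9 the adjusted p was 0.147 for EFNA1, 0.138 for EFNA3, 0.129 for EFNB1, 0.0645 for EPHB2 and 0.303 for SEMA3G. Without TLOm1 it was 0.0898 for EFNA1, 0.0539 for EFNA3, 0.073 for EPHB2 and 0.212 for SEMA3G, without HH 0.0719 for EFNA1 and 0.228 for EPHB2, whose change was then 1.42, and without PF382 0.12 for EFNA3 and 0.0719 for SEMA3G. Over all alternatives the adjusted p of the 5 genes ran from 0.000642 to 1. At 125 nM azacitidine alone 0 of the 46 genes were called by edgeR and 0 by DESeq2, where 0.461% of all genes were called. There 5 of the 46 members had an unadjusted p under 0.05 by edgeR, where 1763 of all 17801 genes had it.

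Romidepsin alone gave 0 calls over the 4 lines by edgeR and 0 by DESeq2, where 0.0169% of all genes were called. Without adjustment 4 of the 46 members had p under 0.05, where 998 of all 17801 genes had it. Each of the 4 was higher: EFNB1 by 0.36 ± 0.12, EPHA10, an Eph receptor with an inactive kinase, by 0.95 ± 0.34, EPHB2 by 1.43 ± 0.60 and SEMA3C by 1.39 ± 0.46. Their adjusted p-values lay between 0.667 and 0.849.

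Adding romidepsin to 250 nM azacitidine raised 6 of the 46 genes and lowered 0, where 5.67% of all genes were called, 3.43% higher and 2.24% lower. EFNA1 had 2.85, 0.694, 0.232 and 2.12 CPM in the combination in PF382, TLOm1, HH and H9, against 0.392, 0.262, 0.168 and 0.905 CPM with azacitidine alone. It was higher in 4 of 4 lines, by 1.68 ± 0.36 (adjusted p = 0.00918). SEMA6B was higher by 3.73 ± 0.78 (adjusted p = 0.00753), EPHB2 by 2.01 ± 0.48 (adjusted p = 0.0168) and SEMA4F by 0.45 ± 0.13 (adjusted p = 0.0374), each in 4 of 4 lines. The SEMA6B value is again a description, as this gene passed the filter through treated libraries. EPHA1 was higher by 1.41 ± 0.37 (adjusted p = 0.027) and EPHA10 by 1.30 ± 0.35 (adjusted p = 0.0338), each in 3 of 4 lines, and TLOm1 had 3 counts or fewer of both genes in either library. None of the 6 calls was kept in every fit without 1 line. EFNA1 lost its call without PF382, at 1.13 (adjusted p = 0.0912), and SEMA6B without H9 (0.0527) or HH (0.0648). EPHB2 lost it without H9 (0.0602), HH (0.0909) or TLOm1 (0.0535), and SEMA4F without H9 (0.0893), HH (0.196), PF382 (0.124) or TLOm1 (0.0664). EPHA1 lost it without H9, at 2.12 (0.0858), HH (0.0944) or PF382 (0.223), and EPHA10 without H9 (0.27), HH (0.119) or PF382 (0.217). Over all alternatives the adjusted p of the 6 genes ran from 0.00352 to 1.

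The combination with 250 nM azacitidine raised 13 of the 46 genes against romidepsin alone and lowered 0, where 14.1% of all genes were called, 8.92% higher and 5.21% lower. EPHA2 changed most, with 133 counts in the 4 combination libraries and 5 in the 4 romidepsin libraries and a change of 4.63 ± 0.93 (adjusted p = 0.00218). With under 10 counts in each romidepsin library, EPHA2 passed the filter on low counts through other libraries, so its value is a description. EPHB2 was higher by 2.67 ± 0.51 (adjusted p = 0.00139), SEMA3F by 1.99 ± 0.40 (adjusted p = 0.00237) and SEMA4B by 0.89 ± 0.16 (adjusted p = 0.00109), and these 4 genes kept their calls without any 1 line. The other 9 were EFNB1, EFNB2, PLXNA3, PLXNB1, SEMA3G, SEMA4A, SEMA4F, SEMA6B and SEMA6C, with changes between 0.44 and 3.04, each in 4 of 4 lines and each lost in at least 1 fit without 1 line. In HH the romidepsin dose also differed, 1.25 nM in the combination and 1 nM alone, and without HH 7 members were called. The largest adjusted p was 0.133 for EFNB2, 0.0716 for SEMA4A, 0.129 for SEMA4F and 0.0657 for SEMA6B, each without HH, 0.132 for EFNB1, 0.17 for PLXNA3, 0.0547 for PLXNB1 and 0.152 for SEMA3G, each without H9, and 0.179 for SEMA6C without PF382. The adjusted p of the 13 genes ran from 1.96e-05 to 1 over all alternatives. Departure of the combination from additive log2 changes was called for 0 of the 46 genes by edgeR and 0 by DESeq2, where 0% of all genes were called. That test too holds the unequal romidepsin doses of HH, and without HH it called 0. Without adjustment EFNA1 (1.45 ± 0.49) and EPHA2 (3.36 ± 1.28) had p under 0.05, where 596 of all 17801 genes had it.

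Within a line, the level of 18 of the 46 genes rose with the azacitidine dose and of 0 fell, over the libraries with and without romidepsin together. Of all genes 22.9% were called, 13.1% higher and 9.8% lower with dose. By family these were 6 of 9 plexins, 7 of 18 semaphorins, 3 of 10 Eph receptors, 1 of 7 ephrins and 1 of 2 neuropilins. SEMA6B and SEMA3D are among the 18. They passed the filter on low counts through treated libraries, so their slopes are a description. A slope is the log2 change per doubling of the dose among the 3 doses of a line.

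SEMA6C had the smallest adjusted p, with a slope of 0.37 ± 0.07 (adjusted p = 0.000483). With romidepsin it had 22.3, 30.6 and 37.9 CPM at 125, 250 and 500 nM in PF382 and 2.17, 3.02 and 7.12 CPM in TLOm1, and without romidepsin 17.7, 19.3 and 26.6 CPM in PF382 and 1.68, 3.01 and 3.6 CPM in TLOm1. At 50, 125 and 250 nM with romidepsin it had 3.03, 3.92 and 6.18 CPM in HH and 4.46, 6.26 and 8.23 CPM in H9, and without romidepsin 2.09, 2.03 and 1.89 CPM in HH and 4.66, 5.46 and 6.3 CPM in H9. The highest dose was above the lowest in 7 of the 8 dose series, and HH without romidepsin was the exception. SEMA3F had a slope of 0.45 ± 0.10 (adjusted p = 0.0025), with the highest dose above the lowest in 8 of 8 series. In TLOm1 it had 0.725, 1.88 and 4.25 CPM at 125, 250 and 500 nM with romidepsin, and 0.309, 1.48 and 1.73 CPM without.

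Of the plexins, 6 of 9 rose with the dose. PLXNA1 had 119, 129 and 137 CPM at 125, 250 and 500 nM with romidepsin in PF382 and 45, 41.1 and 52.8 CPM in TLOm1, and without romidepsin 137, 146 and 160 CPM in PF382 and 54.6, 71.7 and 94.6 CPM in TLOm1. At 50, 125 and 250 nM with romidepsin it had 121, 130 and 152 CPM in HH and 173, 201 and 217 CPM in H9, and without romidepsin 153, 207 and 245 CPM in HH and 150, 182 and 213 CPM in H9. The highest dose exceeded the lowest in 8 of 8 series, with a small slope of 0.19 ± 0.05 (adjusted p = 0.00403). PLXNA3 (0.22 ± 0.06, adjusted p = 0.0109), PLXNB1 (0.31 ± 0.09, adjusted p = 0.012) and PLXNB3, a receptor of SEMA5A (0.64 ± 0.22, adjusted p = 0.0379), did so in 8 of 8 series too. PLXNA2, a receptor of class 6 semaphorins, and PLXND1, the receptor of SEMA3E, had slopes of 0.55 ± 0.19 and 0.30 ± 0.11 (adjusted p = 0.0461 and 0.0497), in 5 of 8 series each.

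Among the Eph receptors EPHA2 had a slope of 0.90 ± 0.24 (adjusted p = 0.00944), up in 5 of 8 series, and in TLOm1 it had 0.845, 4.46 and 15.4 CPM at 125, 250 and 500 nM with romidepsin, and 0.573, 0.96 and 2.44 CPM without. EPHB2 had a slope of 0.55 ± 0.16 (adjusted p = 0.0131) and EPHB6 of 0.37 ± 0.13 (adjusted p = 0.0482), both up in 8 of 8 series. EFNB2 (0.23 ± 0.08, adjusted p = 0.0255) rose in 8 of 8 series, and NRP1 (0.46 ± 0.16, adjusted p = 0.0331) in 7 of 8. The remaining semaphorin slopes were 0.15 ± 0.04 for SEMA4B and 0.13 ± 0.04 for SEMA4F, each up in 7 of 8 series, 0.83 ± 0.23 for SEMA6B, up in 6, and 0.59 ± 0.19 for SEMA3C, up in 4. SEMA3D, a secreted semaphorin with 20 counts or fewer in every library, had a slope of 1.11 ± 0.35 and was up in 5 of 8 series. The values of SEMA6B and SEMA3D are a description only.

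**Figure D3:**
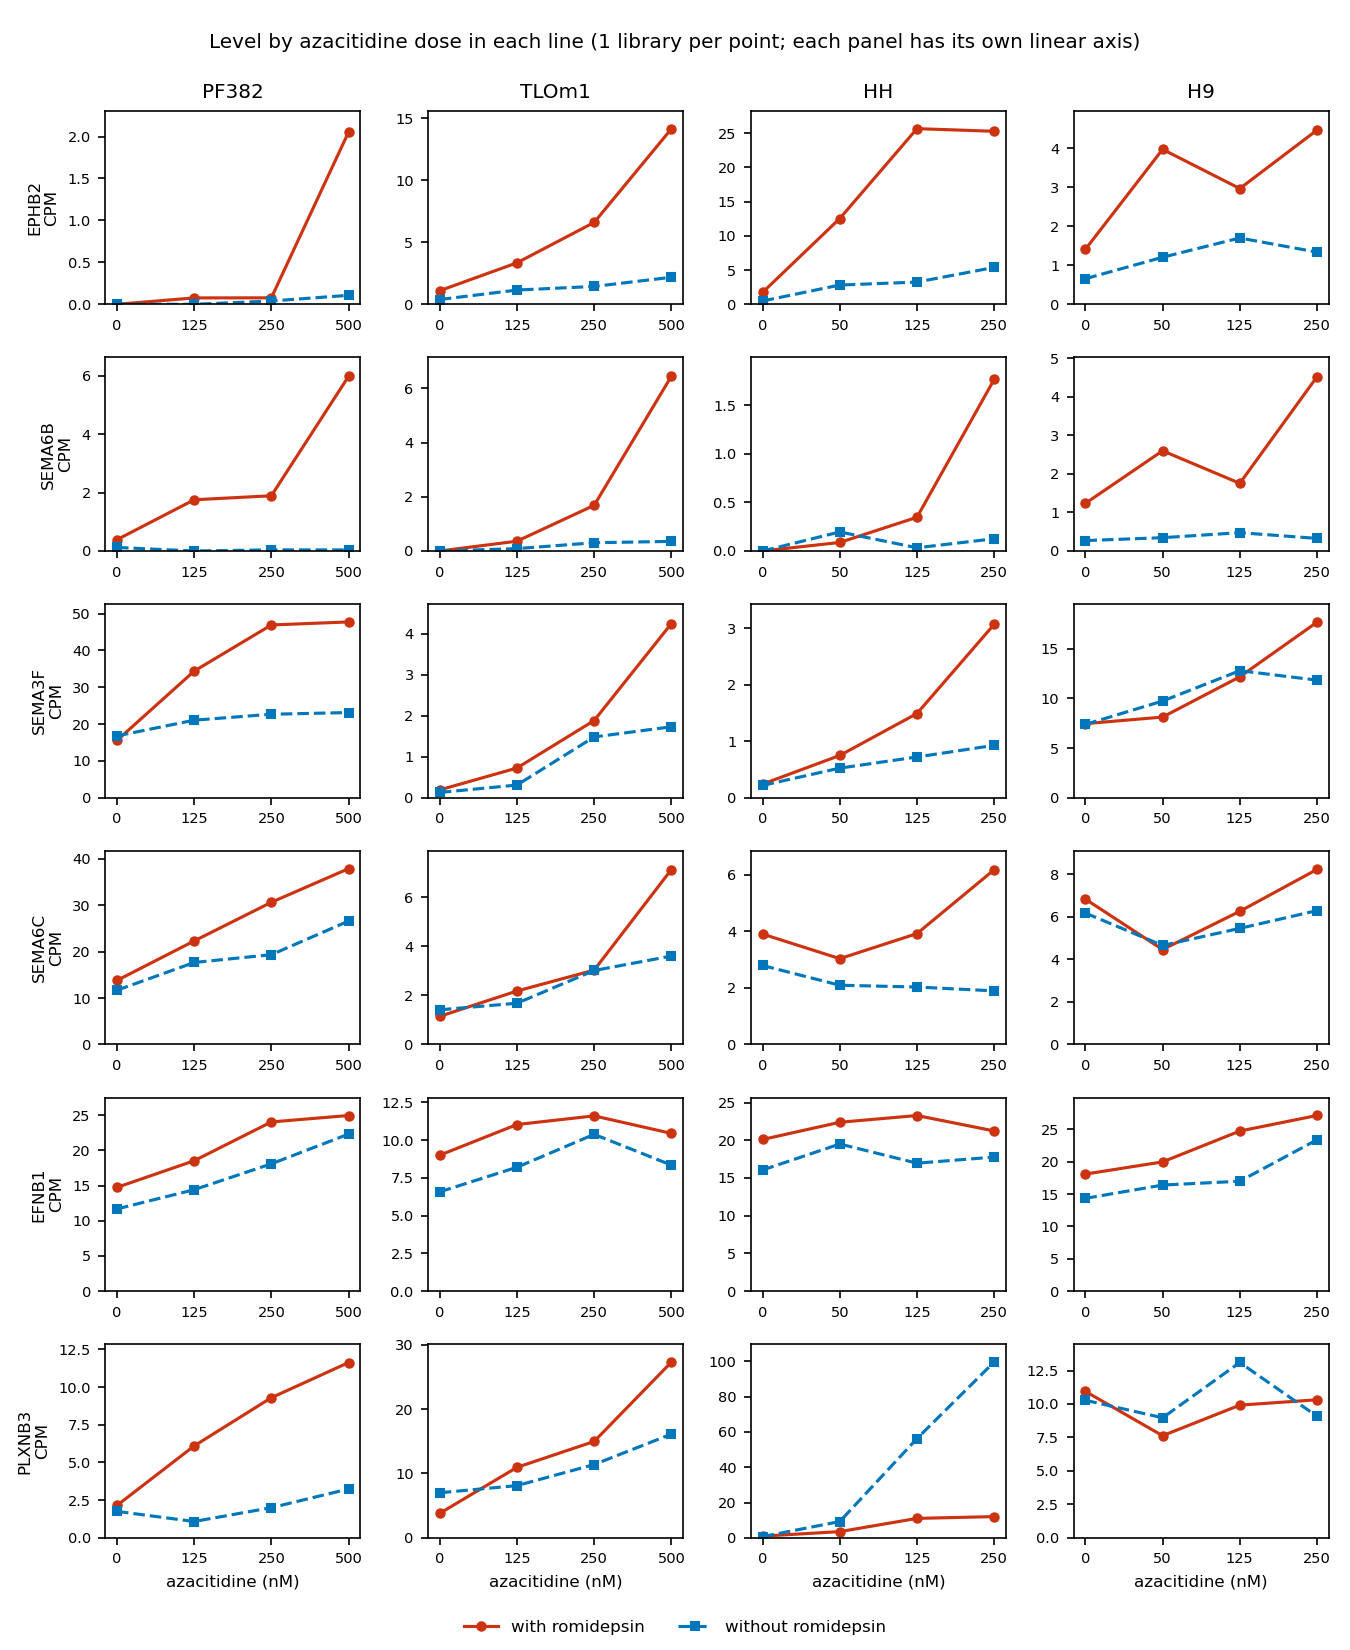
Level in CPM against azacitidine dose in nM for 6 genes in the 4 lines, 1 library per point, with romidepsin (solid lines) and without (dashed lines). SEMA6B was higher with romidepsin at the highest dose of every line, whereas PLXNB3 in HH reached 99.6 CPM without romidepsin and 12 CPM with it.

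The calls of SEMA6C, SEMA3F and PLXNA1 held in each fit without 1 line, and the other 15 did not. Without TLOm1 the slope of SEMA3C was -0.13 (adjusted p = 0.823), that of EPHA2 was 0.44 (0.197), that of SEMA3D 0.49 (0.507) and that of EPHB2 0.46 (0.135). Also without TLOm1, the adjusted p of EPHB6 was 0.228, of NRP1 0.269, of PLXNA2 0.177, of SEMA4B 0.108, of SEMA4F 0.2 with a slope of 0.07, and of SEMA6B 0.108. Without HH the slope of PLXNB3 was 0.38 (adjusted p = 0.0848), that of PLXND1 0.14 (0.305) and that of PLXNB1 0.24 (0.0712). Without H9 the adjusted p of EFNB2 was 0.079 and of PLXNA3 0.0505. The adjusted p of the 18 genes ran from 3.96e-06 to 0.959 over all alternatives. Fitted separately, an alternative chosen after seeing the data, 14 members had a called slope with romidepsin, where 14.4% of all genes were called, and 4 without it, where 9.56% of all genes were called. In the second fit PLXNA1, PLXNA3 and PLXNB1 rose and EFNA3 fell by 0.43 per doubling (adjusted p = 0.0155). The difference between these slopes was not tested.

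Within single lines, where all azacitidine doses enter the comparison, romidepsin changed many of these genes. Here the 4 libraries of a line with romidepsin were set against its 4 without, matched on azacitidine dose. In PF382 28 of the 46 genes were higher and 1 lower, where 30.7% of all genes were called, 19.1% higher and 11.6% lower. In TLOm1 16 were higher and 6 lower, where 32.6% of all genes were called, 17.1% higher and 15.5% lower. In HH 14 were higher and 6 lower, against 27.7% of all genes, 14% higher and 13.7% lower, and in H9 6 were higher and 0 lower, against 4.47%, 3.64% higher and 0.831% lower. The genes higher in 4 of 4 lines were EPHB2, SEMA6B and EFNB1, which are 6.52% of the members, where 0.556% of all genes were higher in 4 lines. SEMA6B is counted here as a description, as it passed the filter through treated libraries. EPHB2 changed by 3.73, 2.14, 2.42 and 1.37 in PF382, TLOm1, HH and H9, SEMA6B by 5.52, 3.30, 2.69 and 2.75, and EFNB1 by 0.32, 0.34, 0.31 and 0.34, all on the log2 scale. In PF382 the EPHB2 call rested on the library with 500 nM azacitidine, which had 57 counts, and without that dose level the change was 1.67 (adjusted p = 0.409). Without the highest dose level SEMA6B in HH changed by 1.24 (adjusted p = 0.466), and EFNB1 lost its call in each line in at least 1 fit without a dose level, with adjusted p-values up to 0.238 in H9. Of the 77 calls in single lines 42 were kept in every fit without 1 dose level. Over all alternatives the highest adjusted p of the called genes was 0.908 in PF382, 0.803 in TLOm1, 0.466 in HH and 0.238 in H9, and the lowest was 2.8e-21, 6.78e-21, 1.87e-51 and 0.000204 in the same order.

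Directions differed between lines, where line and dose cannot be told apart. The plexins were higher in PF382, with 6 of 9 higher and 0 lower, and mostly lower in TLOm1, with 2 higher and 5 lower. In HH 1 plexin was higher and 3 were lower, and in H9 1 was higher. A romidepsin effect higher in 1 line and lower in another was called for 7 of 46 members, or 15.2%, against 5.27% of all genes. These were PLXNA3, PLXNB1, PLXNB3, PLXNC1, SEMA4C, SEMA4D and SEMA5B.

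SEMA4C, the ligand of PLXNB2, went both ways. With romidepsin, without azacitidine and then at its 3 rising doses, it had 7.17, 11.5, 12.3 and 14.5 CPM in PF382 and 6.75, 11.3, 14 and 16.4 CPM in H9, against 3.96, 5.49, 4.04 and 5.27 CPM in PF382 and 3.28, 8.42, 10.7 and 11.4 CPM in H9 in the same order without romidepsin. In TLOm1 it had 27.7, 24.6, 19.9 and 18 CPM with romidepsin and 37.9, 31.5, 31.5 and 25 CPM without, and in HH 31.3, 35.3, 30.3 and 29 CPM with romidepsin and 39.5, 37.8, 37.3 and 37.5 CPM without. Romidepsin thus left SEMA4C higher in PF382 (1.26) and H9 (0.55) and lower in TLOm1 (-0.49) and HH (-0.28), as log2 changes, and the ranges with and without romidepsin did not overlap in PF382 and HH. Equality of the 4 effects was rejected (adjusted p = 1.73e-07), and the call in HH was lost in every fit without 1 dose level.

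EPHB6 had the smallest adjusted p for equality of the romidepsin effect, 1.24e-07. In HH it had 6.51, 13.7, 20.3 and 40.6 CPM with romidepsin at 0, 50, 125 and 250 nM azacitidine, and 1.35, 2.62, 5.17 and 8.17 CPM without romidepsin. In TLOm1 it had 4.86, 3.58, 5.8 and 13.6 CPM with romidepsin at 0, 125, 250 and 500 nM, and 3.2, 1.15, 1.48 and 2.84 CPM without. In both of these lines the library with romidepsin was the higher one at each dose, by 2.21 in HH and 1.63 in TLOm1 on the log2 scale. In PF382, where EPHB6 was most abundant, it was 0.28 higher, and in H9 the difference was 0.05 (adjusted p = 0.872).

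The other plexins and SEMA4D varied between lines as follows. PLXNB2, which binds SEMA4C, was higher with romidepsin by 2.97 in PF382 and 0.69 in HH, with adjusted p-values of 0.0767 in TLOm1 and 1 in H9. PLXNB3 was higher by 1.80 in PF382 and lower by 2.20 in HH. There it had 3.52, 11 and 12 CPM with romidepsin at 50, 125 and 250 nM azacitidine, and 9.22, 56.2 and 99.6 CPM without. Without azacitidine PLXNB3 in HH had 0.964 CPM with romidepsin and 0.698 CPM untreated, so it was lower only beside azacitidine. PLXNC1 was lower by 0.58 in TLOm1 and 0.40 in HH, the lines rich in it, and higher by 0.41 in H9. PLXNA1 was lower by 0.60 in TLOm1 and 0.56 in HH. SEMA4D was higher by 0.46 in PF382 and lower by 0.36 in HH. About 20.4% of the merged exons of PLXNB3 lie within a neighbouring gene of the same strand, so part of its counts is uncertain.

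Among the ligands and Eph receptors, EFNB3, a B ephrin, was higher with romidepsin by 2.75 in PF382, with 99, 213, 335 and 457 counts at 0, 125, 250 and 500 nM azacitidine with romidepsin and 33, 26, 37 and 61 without, and had 7 counts or fewer in every library of the other 3 lines. EPHA1 was higher by 1.65 in PF382 (adjusted p = 2.47e-07), and EPHA10 by 1.41 in PF382, 0.75 in HH and 1.11 in H9. EFNA1 was higher by 1.91 in PF382 and 1.31 in TLOm1. SEMA4A was higher by 2.46, 1.19 and 1.18 in PF382, TLOm1 and HH. SEMA3A, the ligand of NRP1, was called in TLOm1 alone, with 50, 52, 39 and 37 counts with romidepsin and 21, 15, 12 and 20 without, over rising azacitidine doses.

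Other members called with romidepsin in 1 or 2 lines, all higher unless stated, were EPHA2 in TLOm1, EPHA3 and EPHA5, receptors of A ephrins, in TLOm1 from 12 and 8 counts against 0, EPHA3 also in PF382 and EPHA5 in HH, EPHA4, which binds ephrins of both classes, in HH, and EPHB1 and EPHB4 in PF382. They further included EFNA4 in PF382, EFNB2 in HH, SEMA3C and SEMA6A in TLOm1, SEMA3G and SEMA4B in PF382, SEMA4F and SEMA6C in PF382 and HH, PLXNA2 and PLXNA4 in PF382 and TLOm1, NRP1 in TLOm1, NRP2 in PF382 and HH, and SEMA3F in 3 lines. PLXNA4 is listed as a description, as it passed the filter on low counts through treated libraries. Lower were SEMA7A in PF382 (-0.47), SEMA5B in HH (-1.57) and PLXND1 in TLOm1 (-0.51). Equality of the romidepsin effect over the lines was rejected for 23 of the 46 members, where 33% of all genes were called. Line and dose cannot be told apart in that test. Of these 23 calls 12 were kept in every fit without 1 dose level.

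**Figure D4:**
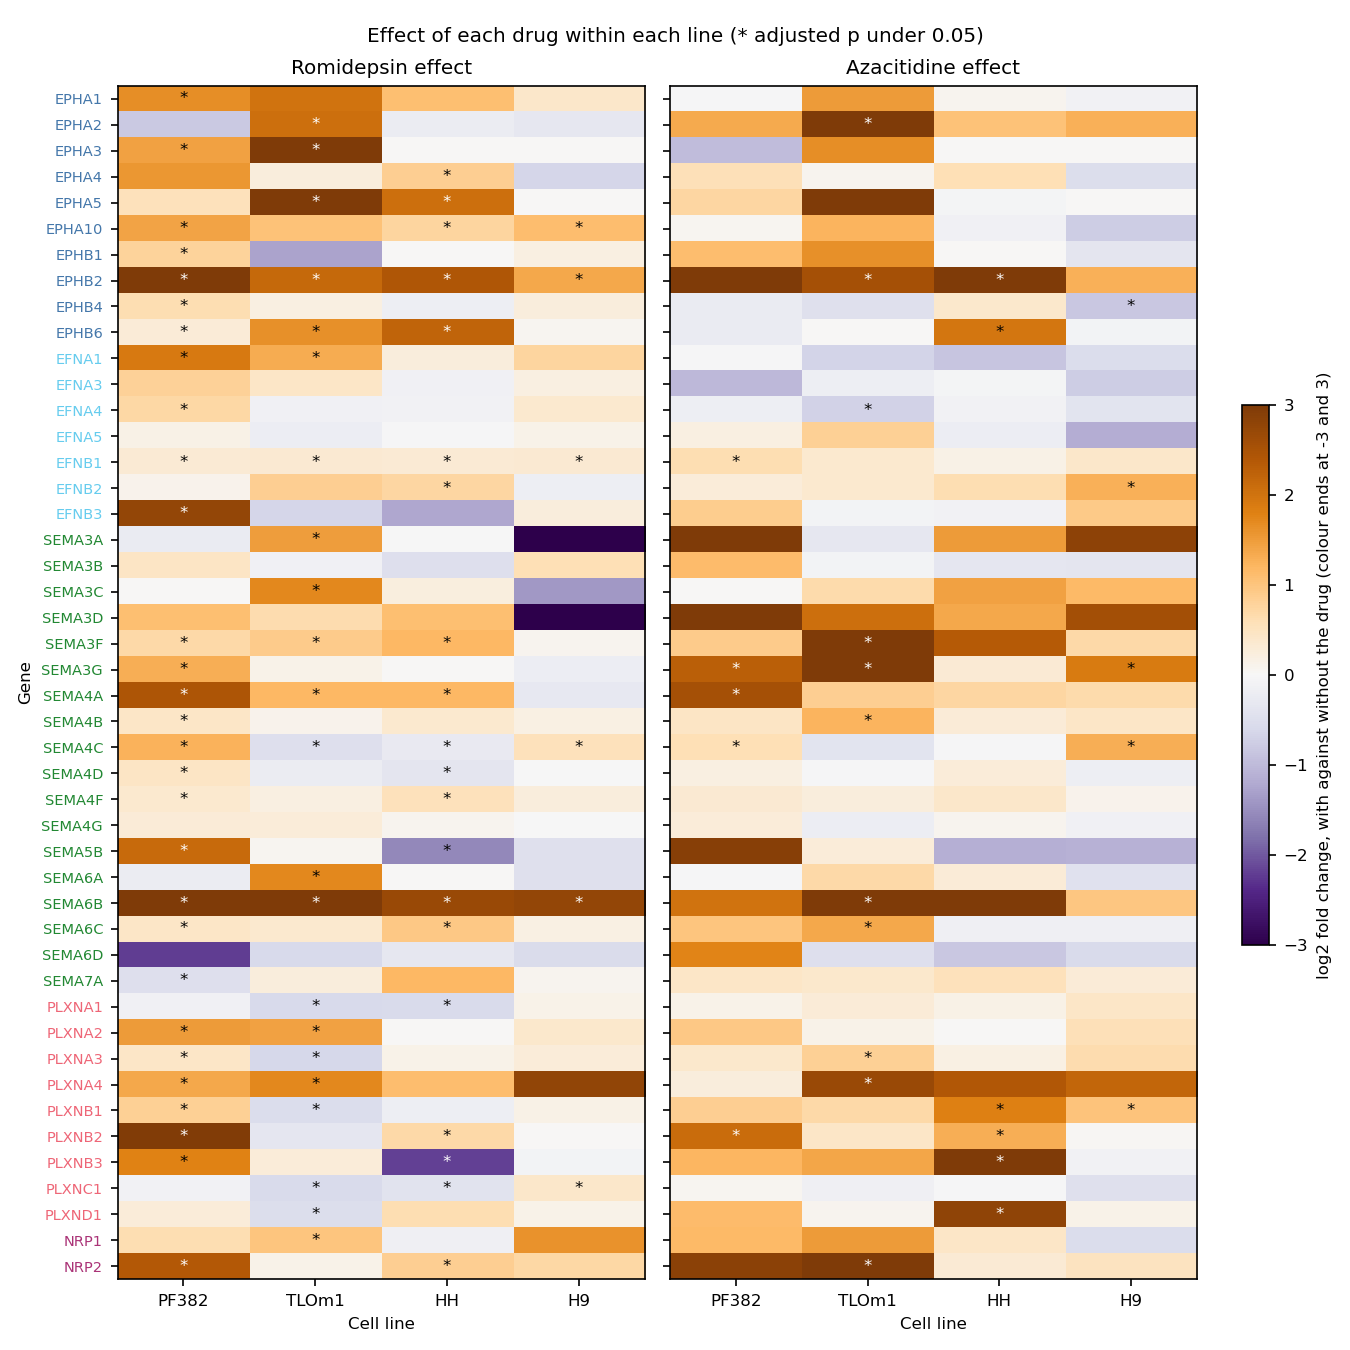
Log2 fold change of the 46 tested genes within each line, with against without romidepsin (left) and with against without azacitidine (right). Stars mark an adjusted p under 0.05. EPHB2, SEMA6B and EFNB1 carry a star for romidepsin in each of the 4 lines, and the plexins show both directions.

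Azacitidine at any dose was also set against its absence within a line, with romidepsin present or absent on both sides. In HH the libraries with both drugs had 1.25 nM romidepsin and the one with romidepsin alone 1 nM, so the HH values below include that difference in dose, and its part in them was not tested. In PF382 5 were higher and 0 lower, where 8.33% of all genes were called, 5.94% higher and 2.39% lower. In TLOm1 10 were higher and 1 lower, where 18.7% of all genes were called, 11% higher and 7.68% lower. In HH 6 were higher and 0 lower, against 5.87% of all genes, 4.07% higher and 1.8% lower, and in H9 4 were higher and 1 lower, against 5.86%, 2.81% higher and 3.06% lower. SEMA3G was higher in 3 lines, by 2.29 in PF382, 3.04 in TLOm1 and 1.89 in H9, and 0 members were higher in 4. Of the 27 calls in single lines 4 were kept in every fit without 1 dose level, EPHA2, SEMA3G and SEMA4B in TLOm1 and SEMA4C in H9, and the other 23 were lost without the middle dose level. PLXNB1 was higher by 1.82 in HH and 1.02 in H9, PLXNB2 by 2.09 in PF382 and 1.30 in HH, PLXNB3 by 4.87 in HH and PLXND1 by 2.80 in HH. EPHB2 was higher by 2.55 in TLOm1 and 3.37 in HH, and EPHB6 by 1.96 in HH. EPHA2 was higher in TLOm1, where it had 0.043 CPM untreated and 0.048 CPM with romidepsin alone. Both lie under the 3-count floors of 0.128 and 0.143 CPM, so its fold is not given. SEMA6B in TLOm1 had 0 counts in both libraries without azacitidine and 9, 34 and 126 with romidepsin and azacitidine, so its fold is not given. The others higher in 1 line were EFNB1 and SEMA4A in PF382, NRP2, PLXNA3, PLXNA4, SEMA3F, SEMA4B and SEMA6C in TLOm1, and EFNB2 in H9. PLXNA4 and SEMA6B are again a description. EFNA4 was lower in TLOm1 (-0.69), and its merged exons overlap by 15% with the read-through gene that also covers EFNA3.

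Equality of the azacitidine effect over the lines was rejected for 6 members, SEMA4C, EPHB4, PLXNB3, SEMA3G, PLXND1 and EPHB6, where 10.7% of all genes were called. The azacitidine doses differed between lines, so line and dose range cannot be told apart in that test. SEMA4C had the smallest adjusted p (0.000403), being higher by 1.31 in H9 and 0.59 in PF382, with values in TLOm1 and HH of -0.39 and -0.03. EPHB4, the receptor of EFNB2, had 15.3, 13.5 and 11.8 CPM with romidepsin at 50, 125 and 250 nM azacitidine in H9 and 26.1 CPM with romidepsin alone, and 14.1, 12.7 and 9.12 CPM with azacitidine alone against 19.7 CPM untreated. The azacitidine libraries of H9 lay below both libraries without azacitidine, a change of -0.83 (adjusted p = 0.00896). In HH EPHB4 had 37.1, 44.1 and 39.8 CPM with both drugs and 30.5 CPM with romidepsin alone, and 31.9, 51.3 and 53.3 CPM with azacitidine alone against 35.3 CPM untreated, a change of 0.38 that was not called (adjusted p = 0.263). Equality of the 4 effects had an adjusted p of 0.0237, and 0.3 without the middle dose level. For the 6 genes the p of equality ran from 1.58e-09 to 0.327 over the alternatives.

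Members that reached 10 counts in every library without any call in a treated comparison were few. SEMA4G, a membrane-spanning semaphorin, was the only one of the 19 without a call, and its 32 values lay between 4.16 and 13.4 CPM. About 22.3% of its merged exons overlap a gene on the opposite strand.

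Genes that work with these receptors, taken from lists of signalling partners, changed in both directions in the combination with 250 nM azacitidine. The share of all genes called there was 23%, 14.2% higher and 8.76% lower. Of 30 Eph and ephrin signalling genes 6 were higher and 1 lower against untreated cells, a share near that of all genes. Among those higher was SRC, the Src kinase (1.095 ± 0.348, adjusted p = 0.0268). Of 30 semaphorin and plexin signalling genes 8 were higher and 1 lower, which was not tested against the share of all genes. The smallest adjusted p among them was that of MICAL2, an enzyme that oxidises actin (1.496 ± 0.227, adjusted p = 0.000101). DPYSL3, a CRMP protein downstream of SEMA3A, was higher by 3.23 ± 0.96 (adjusted p = 0.0191) and RRAS, a small GTPase that plexins inactivate, by 0.86 ± 0.26 (adjusted p = 0.0193). Of 10 tested other receptors of semaphorins 3 were higher, ITGB1 (the β1 integrin bound by SEMA7A, 0.64 ± 0.10), FLT1, a receptor of vascular endothelial growth factor (2.04 ± 0.59), and TYROBP, the adaptor of several myeloid receptors (5.08 ± 0.96). Of 20 tested slit, netrin and other guidance genes 7 were higher and 1 lower, with UNC5B, a netrin receptor, highest at 4.81 ± 0.77 (adjusted p = 0.000164) and SLIT1 lower (-0.87 ± 0.25). Azacitidine alone at 250 nM gave 0, 1, 1 and 2 higher genes in these 4 lists and 0 lower ones, where 3.85% of all genes were higher and 2.14% lower. Romidepsin alone gave 0 in each list, where 0.0169% of all genes were called, so that count says little about the lists.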

How the data were processed

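RNA of 32 libraries from 4 T-cell lines was sequenced on a NextSeq 500 after TruSeq Stranded mRNA preparation, per the labels' protocols, which name both poly-A RNA and rRNA depletion. The authors deposited whole-number read counts per gene symbol for each library. STAR, DESeq2, limma and build GRCh37.p2 are named in the submitters' processing notes, and the read counter, annotation and strandedness were not given in the sources used here. Azacitidine doses of combinations are read as nM, since their titles give no unit.

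The 53 members and the gene lists were chosen with earlier results of these data known. Named with values are members called in a comparison or at 10 counts or more in all 32 libraries. Per-library values are for at most 3 called members per family with the smallest adjusted p in romidepsin alone, azacitidine 250 nM, combination 250 nM or the slope, and 2 per drug with the smallest equality p. Counts were tested with edgeR 4.0.16 (quasi-likelihood F test, TMM, filterByExpr with a minimum count of 10) on 17801 genes, with Benjamini-Hochberg adjustment over all of them, a threshold of 0.05, and the cell line as a block. CPM used TMM-scaled library sizes, single-line changes added 0.5 counts, and standard errors were derived from F. The lines pair the libraries by label. Log2 levels, less the mean of the 4 lines in the same treatment, correlated at 0.833 to 0.955 over 60 pairs of same-line libraries. These are levels of a line and not responses to a drug. Nothing says that libraries came from separate cultures of a line, so p-values measure the spread between these libraries. Counting intervals and floors cover counting error only. Promoters came from RefSeq (GRCh38.p14) and exon overlaps from GENCODE 29. Scripts were tested on simulated data. Alternatives were DESeq2 1.42.0, its size factors in edgeR, no filter, no block, only the compared libraries, and leaving out each line or dose level.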

Additional observations from a re-analysis of the deposited data

Results flagged for a closer look

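In 3 of 47 sets of 4 line changes of called genes, 1 line lay far from the other 3, and HH was that line each time. Chance gives such a gap in about 1 in 20 sets. With 250 nM azacitidine the change of EFNB1 in HH was 0.146 on the log2 scale, below 0.63 to 0.70 in the other lines. In the combination against 250 nM azacitidine the change of SEMA4F in HH was 0.650, above 0.35 to 0.40 in the other lines. In the combination against untreated cells the change of SEMA3G in HH was 0.280, below 2.21 to 2.60 in the other lines.

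The romidepsin effect differed between the 4 lines for 23 members, where 33% of all genes were called. The test was edgeR's quasi-likelihood test of equality with Benjamini-Hochberg adjustment over all genes. Line and dose cannot be told apart in that test. Of the 23 calls 12 were kept in every fit that left out a dose level. Among Eph receptors the adjusted p was 1.24e-07 for EPHB6, 0.00156 for EPHA1, 0.00332 for EPHB4, 0.00831 for EPHA2, 0.0209 for EPHB2 and 0.0227 for EPHA5. Among ephrins it was 0.000113 for EFNB3, 0.00255 for EFNB2 and 0.0154 for EFNA4. Among semaphorins it was 1.73e-07 for SEMA4C, 0.000276 for SEMA4A, 0.000795 for SEMA4D, 0.00481 for SEMA6A, 0.00885 for SEMA5B and 0.0113 for SEMA7A. Among plexins it was 3.07e-06 for PLXNB2, 3.43e-05 for PLXNC1, 8.82e-05 for PLXNB1, 8.9e-05 for PLXNA1, 0.000145 for PLXNA3, 0.000469 for PLXNB3 and 0.0161 for PLXND1, and for the neuropilin NRP2 it was 0.0407.

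Equality of the azacitidine effect was rejected by the same test for 6 members, where 10.7% of all genes were called. Line and dose range cannot be told apart there either. The adjusted p was 0.000403 for SEMA4C, 0.0237 for EPHB4, 0.0245 for PLXNB3, 0.0351 for SEMA3G, 0.0484 for PLXND1 and 0.0489 for EPHB6. Only 1 of the 6 calls, that of SEMA4C, was kept in every fit without 1 dose level.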

How the results depend on the processing

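Without the cell line as a replicate block, 0 of the 46 members were called in azacitidine 250 nM against untreated, combination 125 nM against untreated, combination 250 nM against untreated, combination 250 nM against azacitidine 250 nM, combination 250 nM against romidepsin alone and the azacitidine dose slope, by edgeR, with 1, 2, 2, 1, 1 and 12 members at an unadjusted p under 0.05 in the order given. In that fit the slopes of EPHB2 (-0.045) and PLXNA1 (-0.076) were negative. With only the libraries compared, 0 were called in each of the first 5, with 12, 14, 21, 18 and 16 members at an unadjusted p under 0.05, while DESeq2 on all libraries called 5, 8, 19, 7 and 15, and 19 slopes. The share of all genes at an unadjusted p under 0.05 was not counted in these alternative fits. Over libraries without romidepsin 4 slopes were called, an alternative chosen after seeing the data. Leaving out 1 line gave 0 to 4, 3 to 6, 11 to 15, 1 to 6 and 7 to 10 calls in those 5 comparisons and 9 to 14 slopes, and without TLOm1 the slope of SEMA3C was -0.133, where it was up to 0.874 without HH. Leaving out 1 dose level gave 16 to 30 romidepsin calls in PF382, 11 to 20 in HH and 13 to 27 for equality of the romidepsin effect. For azacitidine it gave 0 to 13 in PF382, 3 to 20 in TLOm1, 0 to 9 in HH, 1 to 11 in H9 and 1 to 12 for equality, which DESeq2 called for 12. The cause was not tested. Shares of all genes called in these alternative fits are not given here. The counts therefore do not tell the members apart from other genes. Of the counts of calls under an alternative, 114 stayed within 1.5 times and 40 did not, and of the single-gene values 1421 kept their direction and side of the threshold, 399 lost the call and 3 changed sign. With the 3-count floor, genes at a few counts per library, such as SEMA3D, EPHA3 and PLXNA4 in HH and H9, gave no usable fold in those lines.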
